A study of Mus musculus with 28 samples.

Results

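The protamines and transition proteins of the mouse are covered here by 5 genes, *Prm1*, *Prm2*, *Prm3*, *Tnp1* and *Tnp2*, out of 27978 genes in an RNA-seq series on the gene *Csmd1* in the gonads. They were chosen by name as the members of these gene families, and the deposited transcripts of each were summed. Each gene had 1 transcript in the table, so the members are 5 of 94480 transcripts. The question asked of them is in which sorted germ cells their mRNA appears, in which order, and in which mice it is low or missing.

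The study compared wildtype mice with *Csmd1* knockout mice, in which exon 1 and part of intron 1 gave way to a cassette with lacZ and neo. As the study describes it, both testes of a male were taken apart, and 1 was sequenced as whole tissue. The other was sorted by Hoechst staining into 4 gates, which the labels call R5 (spermatogonia), R7 (primary spermatocytes), R6 (secondary spermatocytes) and R4 (spermatids). Only mice 178, 286 and 648 have both a whole testis and sorted gates among these libraries. The authors deposited polyA RNA-seq values in RPKM, a read count scaled by transcript length and by library depth, for 27 testis libraries of 12 males and 1 ovary of a wildtype mouse. All mice carry the strain label C57BL/6, while the knockout line came on a mixed 129SvEvBrd and C57BL/6 background. The study took its littermate tissue comparisons from crosses of heterozygous parents of that colony, made before a backcross onto C57BL/6, and describes the wildtype and knockout mice sequenced as siblings; the labels name no litters.

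The spermatid gate holds wildtype mice 178, 351 and 648 and knockout mice 286 and 544. Secondary spermatocytes come from wildtype mice 178 and 648 and knockout mice 286, 544 and 550. Primary spermatocytes come from wildtype mice 178 and 648 and knockout mice 544, 550, 613 and 614. Spermatogonia come from wildtype mice 178 and 648 and knockout mice 286 and 544. Whole testes come from wildtype mice 178 and 648 and knockout mice 214, 269, 273, 286 and 308. By the study's description the males used for sorting were 40 ± 1 days old. Only mice 178 and 351 have an age given singly, as 40 days. For the other sorted mice, 648 and 286 among them, the age rests on that description alone. The study sequenced whole testes at 20 days, before sexual maturity, and at 40 days, but which mouse had which age is not given for those sequenced only as whole testis (214, 269, 273 and 308). The age of the ovary donor is not given either. The labels name no treatment.

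As a spermatid elongates, its histones give way first to transition proteins and then to protamines, small basic proteins that pack the DNA of the sperm head tightly. The mRNAs of both families are made in round spermatids, bound by storage proteins and translated days later, after transcription has stopped. In testes whose germ cells do not reach the later spermatid steps, these mRNAs are scarce, so they are used as marks of how far spermatogenesis has gone.

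The depth of a library, estimated from the step between RPKM values of short transcripts, ran from 23821132 to 61689039 reads with a median of 45389930. For *Prm1* a count of 3 reads, taken as the floor of detection, stands for 0.104 RPKM in the deepest library and 0.269 RPKM in the shallowest. Floors and read numbers cover counting error only, since PCR copies were not marked.

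Some libraries stand apart. The spermatogonia library of knockout mouse 544, which keeps its label here, held a summed 5242 RPKM over 5 late spermatid mRNAs (*Odf1*, *Smcp*, *Akap4*, *Gapdhs*, *Spem1*), where the other libraries of that gate held 278 (mouse 178), 14.1 (mouse 648) and 6.59 (mouse 286). Its summed level of 6 spermatogonia markers was 289 RPKM, against 642, 648 and 619 RPKM in mice 178, 648 and 286. The tests of the members between gates are therefore given with and without it. The primary spermatocyte library of knockout mouse 613 lacks values for more transcripts than any other library, which lack 865 to 2828. Only 12.7% of its low values fall on whole reads (within 0.06 of a read), against 93.1 to 94.5% in the other libraries, so its depth could not be estimated and it is not known whether its RPKM are on the same scale. The spermatogonia library of wildtype mouse 648 held 332 RPKM of Leydig cell markers (12.6 to 24.2 in the other libraries of its gate), 74.6 RPKM of macrophage markers (9.57 to 19.1) and 128 RPKM of peritubular and stromal markers (9.59 to 58.0). In the primary spermatocyte gate the library of knockout mouse 614 held 274 RPKM of spermatogonia markers (17.2 to 93.8 in the others) and 331 RPKM of the 5 late spermatid mRNAs (55.1 to 209), and that of mouse 613 held 86.0 RPKM of Leydig cell markers (3.41 to 7.89). In that gate the library of mouse 648 held 2245 RPKM of primary spermatocyte markers (247 to 880 in the others). Its Sertoli cell markers stood at 163 RPKM (32.5 to 50.7). Among secondary spermatocytes the library of mouse 286 held 61.0 RPKM of peritubular and stromal markers (4.71 to 18.5 in the others). Its Sertoli cell markers stood at 748 RPKM (98.8 to 461). The secondary spermatocyte library of mouse 648 held 1281 RPKM of primary spermatocyte markers (152 to 351). What these contents do to the levels of the members was not tested. Genotypes are as labelled: the full-length *Csmd1* transcript, whose value counts reads over 70 exons while the deletion takes the first, lay at 0.264 and 0.025 RPKM in wildtype whole testes (mice 178 and 648) and at 0.629, 0.039, 0.535, 0.071 and 0.028 RPKM in knockout testes (mice 214, 269, 273, 286 and 308), so it does not check them. For knockout testes the study reports that expression of most exons was lost or much reduced, while that of the last ones was raised. A single value over the full transcript does not separate these.

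Of the 5 genes, 4 lie in a cluster on chromosome 16 of GRCm38, all on the minus strand. In the direction of transcription they follow each other as *Prm1* (ENSMUSG00000022501, chr16:10796326-10796886, 2 exons), *Prm2* (ENSMUSG00000038015, chr16:10791380-10792105, 2 exons), *Prm3* (ENSMUSG00000050058, chr16:10790505-10790914, 1 exon) and *Tnp2* (ENSMUSG00000043050, chr16:10787936-10788660, 2 exons). The cluster spans 8951 bases, with 4220 bases between *Prm1* and *Prm2*, 465 between *Prm2* and *Prm3*, and 1844 between *Prm3* and *Tnp2*. *Tnp1* (ENSMUSG00000026182, chr1:73015074-73015909, 2 exons) lies apart, on the minus strand of chromosome 1. An exon of the antisense gene 1700027A15Rik overlaps 40 nt of its exons, and since it is not stated whether the libraries kept the strand, reads over those bases cannot be told apart. The transcripts are 469 (*Prm1*), 621 (*Prm2*), 410 (*Prm3*), 437 (*Tnp1*) and 554 nt (*Tnp2*) long.

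The stretches of 120 bases upstream of the starts are shown because the 5 mRNAs move together across the libraries, as the values further on show. They are from RefSeq (GRCm38.p6), all 5 genes were matched, and each is written 5′ to 3′ on the minus strand: *Prm1* chr16:10796824-10796943, *Prm2* chr16:10792106-10792225, *Prm3* chr16:10790915-10791034, *Tnp1* chr1:73015900-73016019 and *Tnp2* chr16:10788656-10788775. Capitals mark the words TGANNTCA, which is the cyclic AMP response element with its middle bases left free, and TATAA, searched on both strands; in *Prm2* the capitals TTATA are TATAA on the other strand.
Tnp1: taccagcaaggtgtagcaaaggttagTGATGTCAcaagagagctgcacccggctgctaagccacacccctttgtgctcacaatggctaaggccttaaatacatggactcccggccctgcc
Tnp2: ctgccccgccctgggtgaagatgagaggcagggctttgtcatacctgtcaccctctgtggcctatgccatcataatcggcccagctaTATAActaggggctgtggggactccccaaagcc
Prm1: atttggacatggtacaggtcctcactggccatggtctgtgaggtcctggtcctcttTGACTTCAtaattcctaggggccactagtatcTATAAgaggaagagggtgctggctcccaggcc
Prm2: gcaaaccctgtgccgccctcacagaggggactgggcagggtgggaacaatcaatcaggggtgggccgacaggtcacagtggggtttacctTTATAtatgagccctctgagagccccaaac
Prm3: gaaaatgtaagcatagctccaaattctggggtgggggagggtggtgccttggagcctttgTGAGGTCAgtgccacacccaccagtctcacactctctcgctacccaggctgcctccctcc

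TGANNTCA occurs in 3 of the 5 stretches, at -94 to -87 from the start in *Tnp1*, -64 to -57 in *Prm1* and -60 to -53 in *Prm3*, and in 2346 of 32851 stretches of the same length upstream of mouse genes (7.14%). TATAA occurs in 3 of the 5, at -33 to -29 in *Tnp2*, -32 to -28 in *Prm1* and -30 to -26 on the other strand in *Prm2*, and in 3892 of 32851 (11.8%). The full word TGACGTCA is in none of the 5 and in 407 of 32851 (1.24%). The words do not overlap in these stretches and were chosen after the sequences had been seen. The GENCODE start of *Prm1* lies 63 bases further upstream than the RefSeq start used here, so that transcript runs into the stretch shown; the GENCODE starts of *Tnp1* and *Tnp2* lie 10 and 5 bases upstream.

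*Tnp1* encodes a transition protein, which takes the place of histones before the protamines do. In the spermatid gate its level was 1659 RPKM in wildtype mouse 178, 1868 in wildtype mouse 351, 2378 in knockout mouse 544, 11.5 in wildtype mouse 648 and 5.68 in knockout mouse 286. In secondary spermatocytes it was 211 RPKM in wildtype mouse 178, 3.84 in wildtype mouse 648, and 512, 714 and 3.395 in knockout mice 544, 550 and 286. Mice 648 and 286, 1 of each genotype, were the low ones in both gates, and the genotypes overlap. Fewer cells of a type and less RNA per cell cannot be told apart in these bulk libraries. In primary spermatocytes the level was 33.4 RPKM in wildtype mouse 178 and 0.816 in wildtype mouse 648, and 59.7, 89.0, 39.6 and 93.8 in knockout mice 544, 550, 613 and 614. In spermatogonia it was 153 RPKM in wildtype mouse 178, 0.527 in wildtype mouse 648, 1.82 in knockout mouse 286 and 3272 in knockout mouse 544. Mouse 648 was the lowest in both gates, and the library of mouse 544 labelled spermatogonia stood above every spermatid library.

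*Tnp2* encodes the other transition protein. In spermatids its level was 1388 RPKM in wildtype mouse 178, 1681 in wildtype mouse 351, 1635 in knockout mouse 544, 3.50 in wildtype mouse 648 and 2.39 in knockout mouse 286. In secondary spermatocytes it was 185 RPKM in wildtype mouse 178, 5.43 in wildtype mouse 648, and 454, 403 and 3.72 in knockout mice 544, 550 and 286. In the low mice 648 and 286 the level in spermatids was thus no higher than in secondary spermatocytes. In primary spermatocytes it was 27.4 RPKM in wildtype mouse 178 and 4.10 in wildtype mouse 648, and 47.7, 61.8, 73.9 and 95.0 in knockout mice 544, 550, 613 and 614. In spermatogonia it was 85.4 RPKM in wildtype mouse 178, 0.321 in wildtype mouse 648, 1.83 in knockout mouse 286 and 2282 in knockout mouse 544. Mouse 648 was again lowest, here with 113 estimated reads in primary spermatocytes and 8 in spermatogonia.

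*Prm1* encodes a protamine that is made in its final form. In spermatids its level was 2579 RPKM in wildtype mouse 178, 1299 in wildtype mouse 351, 929.9 in knockout mouse 544, 0.579 in wildtype mouse 648 and 2.14 in knockout mouse 286. It was the 5th most abundant transcript of the spermatid library of mouse 178, while 14 estimated reads stood behind the value of mouse 648 and 49 behind that of mouse 286. In secondary spermatocytes it was 124 RPKM in wildtype mouse 178, 0.691 in wildtype mouse 648, and 261, 259 and 1.99 in knockout mice 544, 550 and 286. In primary spermatocytes it was 17.8 RPKM in wildtype mouse 178 and 0.342 in wildtype mouse 648, and 31.3, 42.7, 24.4 and 34.7 in knockout mice 544, 550, 613 and 614. In spermatogonia it was 92.9 RPKM in wildtype mouse 178, 0.094 in wildtype mouse 648, 0.348 in knockout mouse 286 and 1402 in knockout mouse 544. The value of mouse 648 there rests on 2 estimated reads, under its floor of 0.141 RPKM, and *Prm1* stayed under 1 RPKM in all 4 gates of that mouse.

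*Prm2* encodes the protamine that is made as a longer precursor and trimmed on the DNA. In spermatids its level was 1409 RPKM in wildtype mouse 178, 2209 in wildtype mouse 351, 2179 in knockout mouse 544, 2.01 in wildtype mouse 648 and 2.82 in knockout mouse 286. In secondary spermatocytes it was 304 RPKM in wildtype mouse 178, 0.525 in wildtype mouse 648, and 587.2, 587.5 and 2.76 in knockout mice 544, 550 and 286. The same mice, 648 and 286, were low. In primary spermatocytes it was 49.8 RPKM in wildtype mouse 178 and 0.065 in wildtype mouse 648, and 81.8, 96.5, 72.1 and 113 in knockout mice 544, 550, 613 and 614. In spermatogonia it was 118 RPKM in wildtype mouse 178, 0 in wildtype mouse 648, 1.54 in knockout mouse 286 and 3449 in knockout mouse 544. With no read in the spermatogonia of mouse 648, a level of up to 0.106 RPKM is allowed there.

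*Prm3* lies between *Prm2* and *Tnp2* and encodes an acidic protein that is found in the cytoplasm and not on the DNA. In spermatids its level was 473 RPKM in wildtype mouse 178, 520.4 in wildtype mouse 351, 744 in knockout mouse 544, 27.3 in wildtype mouse 648 and 61.9 in knockout mouse 286. In secondary spermatocytes it was 77.0 RPKM in wildtype mouse 178, 10.1 in wildtype mouse 648, and 304, 283 and 21.4 in knockout mice 544, 550 and 286. Mice 648 and 286 were the lowest here too, but with 576 and 1240 estimated reads in spermatids the mRNA was well above the floor. In primary spermatocytes the level was 7.44 RPKM in wildtype mouse 178 and 2.52 in wildtype mouse 648, and 12.2, 13.4, 48.8 and 30.5 in knockout mice 544, 550, 613 and 614, where the scale of mouse 613 is in doubt. In spermatogonia it was 19.9 RPKM in wildtype mouse 178, 0.487 in wildtype mouse 648, 0.936 in knockout mouse 286 and 539.5 in knockout mouse 544. Between the low and the high mice the gap in spermatids was smaller for *Prm3* than for the other 4 members. In the ovary no read was assigned to *Prm1*, *Prm2*, *Prm3* or *Tnp1* (up to 0.121, 0.0915, 0.139 and 0.13 RPKM allowed), and *Tnp2* had 2, under its floor of 0.103 RPKM.

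**Figure D1:**
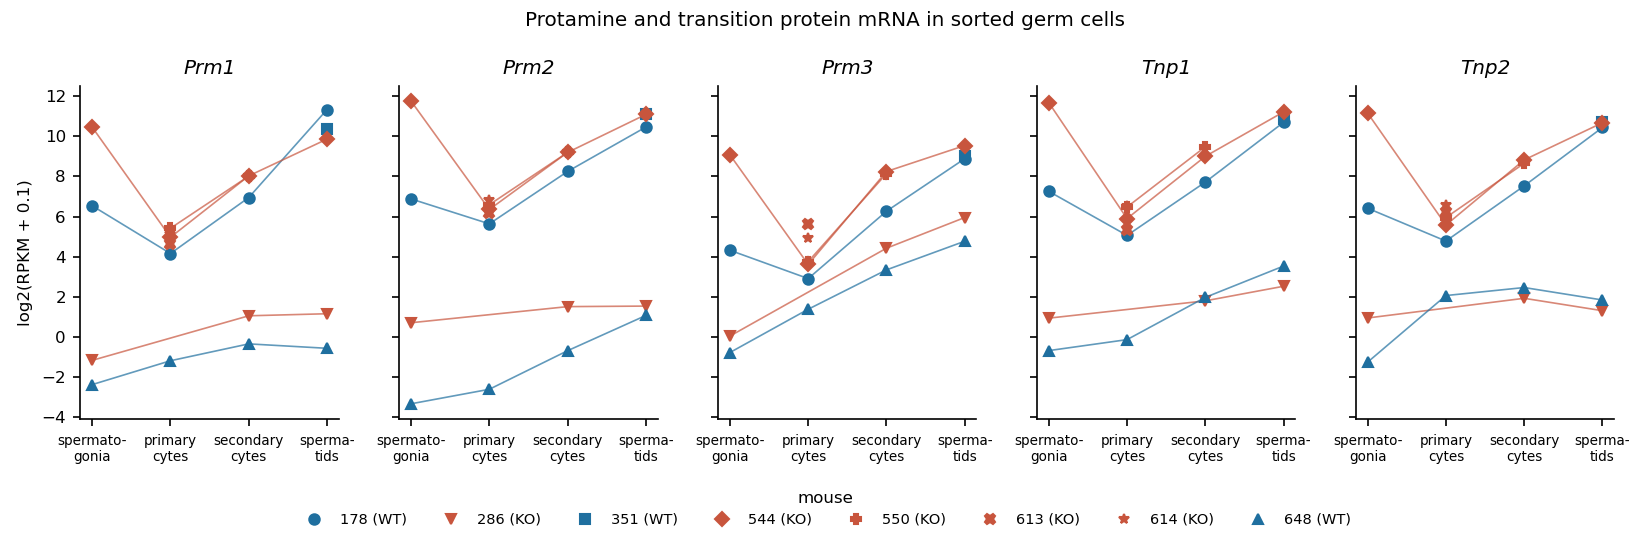
Level of each member, as log2(RPKM + 0.1), in the 4 sorted gates, with 1 point per library, lines joining the libraries of a mouse, and colour for genotype. Mice 648 (wildtype) and 286 (knockout) run below the other mice in every gate they have, and *Prm3* is the member in which their spermatids come closest to the others.

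Averaged over all libraries of a gate, the 5 genes shared an order: spermatids, then spermatogonia, secondary and primary spermatocytes. For *Prm1* the means were 962 ± 1069 RPKM in spermatids (SD, n = 5), 374 ± 687 in spermatogonia (n = 4), 129.3 ± 129.4 in secondary spermatocytes (n = 5) and 25.2 ± 14.9 in primary spermatocytes (n = 6). For *Prm3* they were 365 ± 310 RPKM, 140.2 ± 266, 139 ± 143 and 19.1 ± 17.3 in the same gates. No pair of neighbours in this order differed by more than the larger SD, for any of the 5 genes. The high place of spermatogonia comes from the library of mouse 544, since by medians spermatids came first and secondary spermatocytes next for all 5 genes. Without it the mean in spermatogonia was 31.1 ± 53.5 RPKM for *Prm1* (n = 3) and 7.12 ± 11.1 for *Prm3*.

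Inside mice 178 and 544 the steps towards spermatids were clearer, but inside mice 286 and 648 they were not for every gene. In mouse 286 secondary spermatocytes held 34.6% (*Prm3*), 59.8% (*Tnp1*), 92.8% (*Prm1*), 98.1% (*Prm2*) and 156% (*Tnp2*) of the level in its own spermatids. In mouse 648 they held 26.1% (*Prm2*), 33.4% (*Tnp1*), 37.0% (*Prm3*), 119% (*Prm1*) and 155% (*Tnp2*). In wildtype mouse 178 the level in primary spermatocytes was 0.690% of that in its own spermatids for *Prm1*, 1.57% for *Prm3*, 1.97% for *Tnp2*, 2.01% for *Tnp1* and 3.53% for *Prm2*. In its secondary spermatocytes it was 4.79% for *Prm1*, 12.7% for *Tnp1*, 13.3% for *Tnp2*, 16.3% for *Prm3* and 21.6% for *Prm2*. *Prm1* thus had the latest increase in this mouse, 20.9 times from secondary spermatocytes to spermatids against 4.63 times for *Prm2*. In knockout mouse 544 the secondary spermatocytes held 21.5% (*Tnp1*), 26.9% (*Prm2*), 27.7% (*Tnp2*), 28.1% (*Prm1*) and 40.8% (*Prm3*) of the level in its spermatids. *Prm1* was not set apart there, and *Prm3* was the furthest along. In the primary spermatocytes of mouse 544 *Prm3* was the least far along, at 1.64% against 2.51% (*Tnp1*) to 3.75% (*Prm2*) for the other members. All 5 genes were lower in primary spermatocytes than in spermatogonia in mouse 178, by 2.37 (*Prm2*) to 5.22 times (*Prm1*), and in mouse 544, by 42.2 (*Prm2*) to 54.8 times (*Tnp1*), where the step rests on the spermatogonia library that stands apart. The spermatogonia library of mouse 178 also held more late spermatid mRNA than its primary spermatocytes (278 against 86.8 RPKM) and more of the primary spermatocyte markers (1947 against 572 RPKM), and their part in this step was not tested. In mouse 648, the third mouse with both gates, the values of *Prm1*, *Prm3*, *Tnp1* and *Tnp2* were higher in primary spermatocytes, and *Prm2* was under its floor in both gates.

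Wildtype mouse 648 had low levels and all 4 gates, and its spermatogonia library is the one with high somatic cell markers. In its spermatogonia 0 of 5 genes reached 1 RPKM. In primary spermatocytes *Tnp2* and *Prm3* did, with 113 and 51 estimated reads. In secondary spermatocytes *Tnp1* joined them and *Prm3* reached 10 RPKM. In spermatids *Prm2* passed 1 RPKM and *Tnp1* passed 10, and *Prm1*, at 0.579 RPKM, passed neither. Knockout mouse 286 had 3 of the 5 genes at 1 RPKM or more in spermatogonia (*Prm2*, *Tnp1* and *Tnp2*), all 5 in secondary spermatocytes and spermatids, and only *Prm3* at 10 RPKM or more in either. These are orders in 1 mouse each and were not tested.

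The increase towards spermatids was tested in limma over all 20 sorted libraries, as the log2 difference between spermatids and the mean of the other 3 gates, with p adjusted over 19025 genes. This fit did not pair the libraries of a mouse, and fits with the mouse as a random block are given as an alternative. All 5 members passed the filter on low values, and 1 of 5 was called higher, where 2063 of all genes were (10.8%); 0 of 5 were called lower, where 4407 of all genes were (23.2%). *Prm3* rose by 3.53 on the log2 scale (SE 1.22, adjusted p = 0.0340). *Tnp1* was higher by 2.66 (SE 1.94, adjusted p = 0.301), which did not pass. The differences were 2.56 for *Prm1* (SE 2.24, adjusted p = 0.392), 2.53 for *Prm2* (SE 2.34, adjusted p = 0.423) and 1.90 for *Tnp2* (SE 1.92, adjusted p = 0.465), which did not pass either. The standard errors of these 4 genes, 1.92 to 2.34, were close to the differences in size. The median over all genes was -0.35, and quantile normalization moved that median by 0.21. Relative to the median of all genes *Prm3* stood 3.88 higher as deposited and 3.61 higher after quantile normalization.

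The call of *Prm3* rested on several mice. It was lost without wildtype mouse 178 (adjusted p = 0.0666), 351 (0.0882) or 648 (0.0752), without knockout mouse 544 (0.0502), and with no filter on low values (0.0560), while the difference stayed between 3.17 (without mouse 351) and 3.998 (without mouse 178). With the mouse as a random block it was 3.64 (adjusted p = 0.00265). Without the spermatogonia library of mouse 544, left out after its values had been seen, it was 4.29 (adjusted p = 0.00241). Over all alternatives the adjusted p ran from 0.00241 to 0.0882. Without that library *Prm1* stood at 3.53, *Prm2* at 3.45, *Tnp1* at 3.56 and *Tnp2* at 2.75, and none of these 4 passed the threshold. The number of genes called in both directions, 6470, was 3365 without mouse 178 and 3586 without mouse 544.

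The 4 mice with spermatids and at least 2 other gates allow an exact permutation test that exchanges the gates within each mouse (two-sided, not adjusted). For *Prm3* the log2 difference between spermatids and the mean of the other gates was 4.38 in mouse 178, 3.72 in mouse 286, 2.56 in mouse 544 and 3.45 in mouse 648. For *Prm1* it was 5.45, 1.21, 2.04 and 0.74 in the same mice. Both were higher in spermatids in 4 of 4 mice, *Prm3* by similar amounts and *Prm1* chiefly in mouse 178. The exact p was 0.0208 for *Prm3* and for *Tnp1*, 0.0365 for *Prm2*, 0.0573 for *Prm1* and 0.161 for *Tnp2*, where 192 arrangements allow no p under 0.00521. *Prm2* and *Tnp1* were higher in 4 of 4 mice and *Tnp2* in 3 of 4. The share of all genes higher in each of these mice is not given, so these counts only describe the members. In mouse 648 *Prm2* had 0 estimated reads in spermatogonia and 2 in primary spermatocytes, both under the floor. The difference of *Prm2* in that mouse, and with it the exact p, thus depends on the 0.1 RPKM added before the log. Without the spermatogonia library of mouse 544 the exact p was 0.00694 for *Prm2* and *Tnp1*, the smallest that 144 arrangements give, 0.0208 for *Prm3*, 0.0278 for *Prm1* and 0.0833 for *Tnp2*. That library was set aside after its values had been seen. Leaving it out raised the difference in mouse 544 for each gene, for *Prm2* from 1.99 to 3.31. These p are therefore no separate support.

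Single steps between neighbouring gates called none of the members. From spermatogonia to primary spermatocytes the limma log2 differences of the 5 genes lay between -0.54 and 0.43 with adjusted p from 0.901 to 1, where 5997 of all genes passed in either direction (31.5%; 3167 without mouse 178, 2203 without mouse 648). Their direction is not given, since it turns with 1 library: without the spermatogonia library of mouse 544 *Prm1* was higher in primary spermatocytes by 2.80, *Prm2* by 2.76 and *Tnp1* by 2.15. From primary to secondary spermatocytes they were higher by 0.98 (*Tnp2*) to 2.56 (*Prm3*), with adjusted p from 0.323 to 0.847, where 578 of all genes passed (3.04%). Inside mice 178, 544, 550 and 648, which have both gates, all 5 genes rose at this step. How many of all genes rose in each of these mice is not given, so this only describes the members. The log2 rise ran from 0.40 (*Tnp2*, mouse 648) to 4.63 (*Prm3*, mouse 544). For *Prm2* it was 2.61, 2.84, 2.60 and 1.92 in these mice. The 1.92 of mouse 648 starts from 2 estimated reads, under the floor of 0.0970 RPKM. Its size therefore depends on the 0.1 RPKM added before the log. With the mouse as a block *Prm3* did pass that step (3.03, SE 1.03, adjusted p = 0.0458), as did 3786 of all genes; over the alternatives its adjusted p ran from 0.0458 to 0.783. From secondary spermatocytes to spermatids they were higher by 1.10 (*Tnp2*) to 1.81 (*Tnp1*), with adjusted p from 0.558 to 0.844, where 102 of all genes passed (0.536%) and 1976 with the mouse as a block. The direction of that last step turned without mouse 544 for *Prm2* (-0.025) and *Tnp2* (-0.66). The 578 genes of the middle step became 0 without mouse 178 or 550, 42 without mouse 648, 1274 without mouse 286, 1624 without mouse 613 and 1502 without the spermatogonia library of mouse 544. The 102 genes of the last step became 0 without mouse 178, 544 or 550, 7 without mouse 351, 19 without mouse 648, 33 without mouse 614 and 403 without mouse 613.

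**Figure D2:**
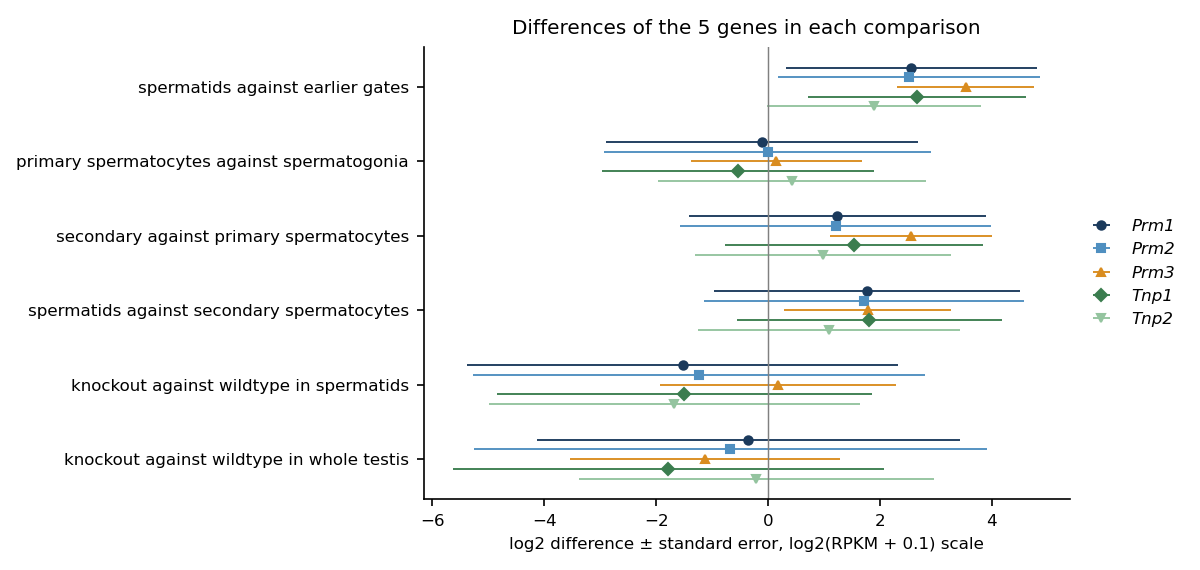
Log2 difference of each member with its standard error in 6 comparisons of the limma fits, on the scale log2(RPKM + 0.1). Only the difference of *Prm3* between spermatids and the earlier gates, 3.53, passed an adjusted p of 0.05.

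Whole testes also fell into a high and a low group of mice, and the part that age has in this was not tested. *Tnp1* stood at 889 RPKM in wildtype mouse 178 and 4.003 in wildtype mouse 648, and at 1561, 2464, 1.91, 1.36 and 0.049 in knockout mice 214, 273, 269, 286 and 308. *Tnp2* stood at 869 RPKM in wildtype mouse 178 and 2.33 in wildtype mouse 648, and at 1188, 1933, 5.53, 4.99 and 1.43 in knockout mice 214, 273, 269, 286 and 308. Both were high in mice 178, 214 and 273 and low in the other 4, with no mouse between. *Prm1* stood at 603 RPKM in wildtype mouse 178 and 0.681 in wildtype mouse 648, and at 1152, 1922, 0.850, 1.16 and 0.439 in knockout mice 214, 273, 269, 286 and 308. *Prm2* stood at 2374 RPKM in wildtype mouse 178 and 0.456 in wildtype mouse 648, and at 4427, 4079, 1.83, 1.68 and 0 in knockout mice 214, 273, 269, 286 and 308. In the testis of mouse 308 no read of *Prm2* was seen, which allows up to 0.0995 RPKM, and 1 estimated read of *Tnp1*, 10 of *Prm1*, 13 of *Prm3* and 38 of *Tnp2*. *Prm3* stood at 206 RPKM in wildtype mouse 178 and 7.76 in wildtype mouse 648, and at 279, 394, 3.75, 6.49 and 0.658 in knockout mice 214, 273, 269, 286 and 308. The split by mouse was the same for all 5 genes, and each side of it held both genotypes.

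**Figure D3:**
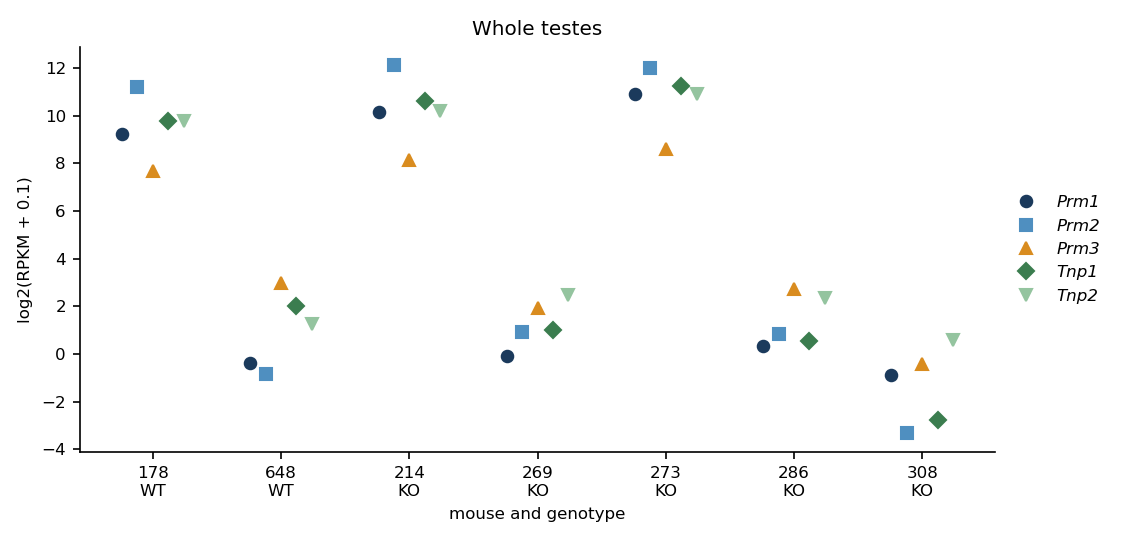
Level of the 5 members, as log2(RPKM + 0.1), in the 7 whole testes, with 1 column of points per mouse. Mice 178, 214 and 273 hold all 5 genes at 206 RPKM or more, and mice 648, 269, 286 and 308 hold all 5 at 7.76 RPKM or less.

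The 2 mice with low spermatids and a whole testis, 648 and 286, were low in both samples, and mouse 178 was high in both. In mouse 178 the level of *Prm1* in whole testis was 0.234 times that in its spermatids, and that of *Prm2* 1.68 times. The ratio of *Prm1* to *Prm2* in that mouse was 1.83 in spermatids and 0.254 in whole testis. In the other testes with high levels the ratio was 0.260 (mouse 214) and 0.471 (mouse 273), and in the spermatids of mice 351 and 544 it was 0.588 and 0.427. Of these 6 libraries only the spermatids of mouse 178 held more *Prm1* than *Prm2*.

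Knockout minus wildtype in whole testis was -0.35 on the log2 scale for *Prm1*, -0.67 for *Prm2*, -1.13 for *Prm3*, -1.78 for *Tnp1* and -0.21 for *Tnp2*, with standard errors from 2.41 to 4.59 and adjusted p from 0.899 to 0.988. In limma 0 of 5 members and 0 of 18765 genes passed (0%), and 2327 genes had an unadjusted p under 0.05. An exact permutation test over the 7 mice (two-sided, 21 arrangements, smallest p 0.0476) gave p from 0.619 to 0.952. Single mice set the sign: without wildtype mouse 178 the 5 differences lay between 1.23 and 5.36, and without wildtype mouse 648 between -6.70 and -3.49, where the lone wildtype testis is assumed to vary like the others. Quantile normalization moved the median of all genes in this comparison by -0.41.

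In spermatids knockout minus wildtype was -1.53 for *Prm1*, -1.23 for *Prm2*, 0.19 for *Prm3*, -1.49 for *Tnp1* and -1.67 for *Tnp2*, with standard errors from 2.11 to 4.04 and an adjusted p of 1 for each. In limma 0 of 5 members and 0 of 19025 genes passed (0%), and 139 genes had an unadjusted p under 0.05. The exact permutation test over 5 mice (two-sided, 10 arrangements) cannot give a p under 0.1, and gave 0.6 to 1. Without knockout mouse 286 all 5 differences were above 0, from 1.98 to 3.54, and without knockout mouse 544 all were below 0, from -6.35 to -1.61, with the lone knockout library assumed to vary like the other groups. The sign of *Prm3* also turned after quantile normalization (-0.079). In the 8 libraries that share the missing transcripts of mouse 178 it was -2.9999, but there mouse 286 is the lone knockout spermatid library, set against mice 178 and 351, so missing transcripts and the choice of mice cannot be told apart. The difference between genotypes in the increase towards spermatids was -2.23 for *Prm3* and -5.32 to -4.20 for the other 4, with an adjusted p of 0.9999 for each. Here too 0 of 5 members and 0 of 19025 genes (0%) passed in limma, and 98 genes had an unadjusted p under 0.05. Without the spermatogonia library of mouse 544 the difference was -0.73 for *Prm3* and -3.48 to -2.42 for the other 4, with 0 of 19011 genes past the threshold in limma and 97 at an unadjusted p under 0.05. By mouse, the increase of *Prm2* was 3.54 and 3.28 in wildtype mice 178 and 648 and 0.43 and 1.99 in knockout mice 286 and 544. That of *Tnp1* was 4.02 and 3.14 in the wildtype mice and 1.16 and 2.36 in the knockout mice, so for these 2 genes the genotypes did not overlap. For *Prm2* the value of mouse 648 rests on 0 reads in spermatogonia and 2 in primary spermatocytes, both under the floor. It therefore depends on the 0.1 RPKM added before the log. How many of all genes separate the genotypes in this way is not given. Without the spermatogonia library of mouse 544 that mouse stood at 3.31 for *Prm2* and 3.76 for *Tnp1*, and the genotypes did overlap. None of these comparisons shows that the genotypes are alike.

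In the libraries with low levels the make-up of the 5 mRNAs was different too. *Prm3* made up 6.30%, 6.87% and 9.46% of the summed RPKM of the 5 genes in the spermatids of mice 178, 351 and 544, but 60.8% in mouse 648 and 82.6% in mouse 286. In whole testis its share was 4.17%, 3.24% and 3.65% in mice 178, 214 and 273, and 51.0%, 27.1%, 41.4% and 25.6% in mice 648, 269, 286 and 308. The shares of the high and the low libraries did not overlap in either sample type, and both sides held both genotypes. *Prm1* was the lowest of the 5 in the spermatids of mice 648 and 286 and in the testes of mice 269 and 286. *Prm3* was the least abundant member in each of the 3 spermatid libraries with high levels and the most abundant in both libraries with low ones. This grouping was read from the values themselves and was not tested.

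**Figure D4:**
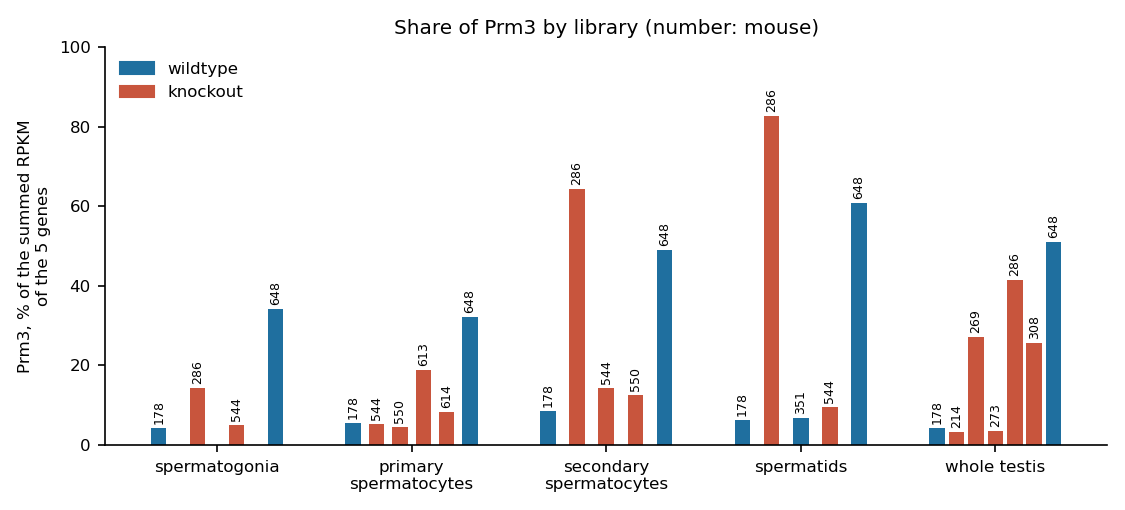
Share of *Prm3* in the summed RPKM of the 5 members, in percent, for each testis library by sample type, with bars coloured by genotype and numbered by mouse. In spermatids and whole testes mice 648 and 286 show 41.4% to 82.6%, and the mice with high levels 3.24% to 9.46%.

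Other spermatid mRNAs from a fixed list show where the low libraries differ. *Spem1*, a late spermatid mRNA, stood at 188, 143 and 242 RPKM in the spermatids of mice 178, 351 and 544 and at 0.671 and 0.138 in mice 648 and 286. *Smcp*, from the same list, stood at 967, 879 and 1344 RPKM in those 3 mice and at 578 and 464 in mice 648 and 286. *Odf1*, also from that list, stood at 127, 115 and 204 RPKM against 12.5 and 47.4. Of the round spermatid mRNAs, *Catsper3* stood at 120, 80.9 and 202 RPKM in mice 178, 351 and 544 and at 10.7 and 38.4 in mice 648 and 286. *Tssk1* stood at 51.5, 50.3 and 73.7 RPKM against 10.9 and 11.02, and *Acr* at 134, 94.6 and 176 RPKM against 147 and 114. *Zpbp* stood at 26.2, 19.0 and 22.8 RPKM against 26.4 and 33.5, and *Spaca1* at 279, 142 and 233 RPKM against 193 and 149. Below all 3 of mice 178, 351 and 544 in both mice 648 and 286 were thus 5 of 5 late mRNAs and 3 of 6 round ones (*Acrv1*, *Catsper3*, *Tssk1*), while *Zpbp* was above them and *Acr* and *Spaca1* overlapped. The share of all genes that split this way is not given, so these counts only describe the lists. *Acr* was also at 149 RPKM in the primary spermatocytes of mouse 178, and its increase towards spermatids (0.93, adjusted p = 0.149) did not pass in limma. Summed over the late list, which had 5 of its 6 genes in the table (*Oaz3* was not), the spermatid libraries of mice 178, 351, 544, 648 and 286 held 3235, 2834, 4345, 812 and 791 RPKM. Summed over the 6 round spermatid mRNAs they held 783, 478, 861, 436 and 433 RPKM. All genes of both lists were above 0 in these 5 libraries, with *Spaca1* the most abundant of the round list in each. In limma 3 of 5 late mRNAs (*Odf1*, *Smcp*, *Akap4*) and 4 of 6 round mRNAs (*Acrv1*, *Spaca1*, *Zpbp*, *Catsper3*) were higher in spermatids than in the earlier gates, where 10.8% of all genes were, with medians of 3.18 and 2.81 log2 units beside -0.35 over all genes.

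**Figure D5:**
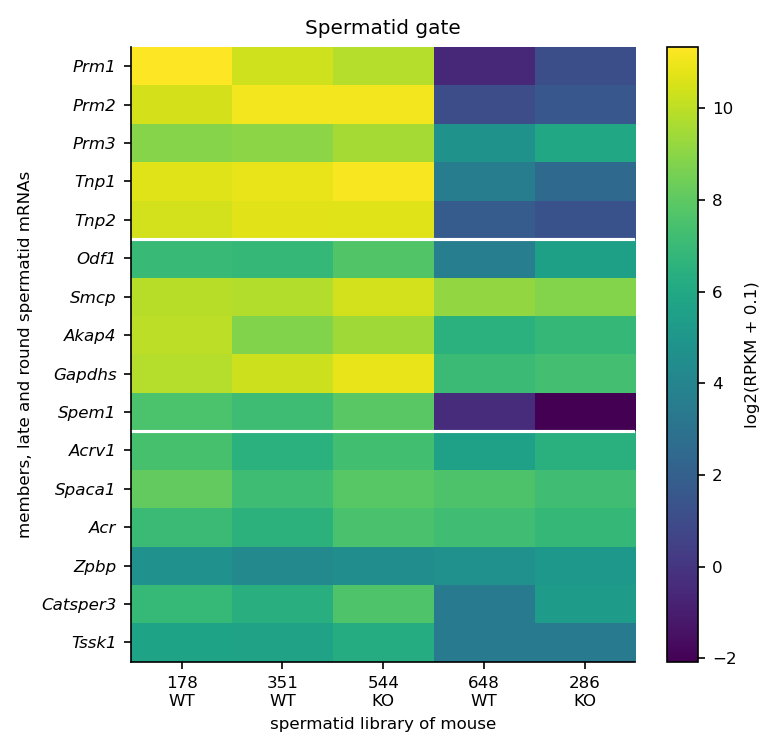
Level, as log2(RPKM + 0.1), of the 5 members, 5 late and 6 round spermatid mRNAs (separated by white lines) in the 5 spermatid libraries. The members, all 5 late and 3 round mRNAs (*Acrv1*, *Catsper3*, *Tssk1*) are lower in mice 648 and 286 than in the other 3, while *Zpbp* is higher and *Acr* and *Spaca1* overlap. The share of all genes with this split is not shown.

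Genes that act on protamine transcription were taken from a list of 8. In limma 2 of 8 were higher in spermatids than in the earlier gates, where 10.8% of all genes were, and 0 were lower, where 23.2% were, with a median of 0.78. *Fhl5*, a coactivator of the factor CREM, rose by 2.85 (adjusted p = 0.0421). It stood at 85.3, 78.2 and 138 RPKM in the spermatids of mice 178, 351 and 544 and at 9.21 and 10.8 in mice 648 and 286. *Crem*, which encodes that factor, rose by 1.64 (adjusted p = 0.0359). Its summed transcripts, which count shared reads more than once, stood at 1908, 1896 and 1647 RPKM in the spermatids of those 3 mice and at 2928 and 2668 in mice 648 and 286. In the spermatid gate *Crem* was thus highest in mice 648 and 286, as were *Kdm3a*, *Tbpl1*, *Gtf2a1l* and *Rfx2*, and *Fhl5* was the only gene of the 8 that was lower in both than in the other 3 mice. How many of all genes split these libraries in the same way is not given. In whole testis *Crem* stood at 548, 1551 and 2299 RPKM in mice 178, 214 and 273 and at 1559, 553, 727 and 619 in mice 648, 269, 286 and 308, so high and low mice overlapped there for *Crem*.

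Against the same shares of all genes (10.8% higher, 23.2% lower), 0 of 7 genes for storage and translation of these mRNAs were higher and 2 lower in spermatids (*Piwil1*, fell by 2.37, and *Dazl*, fell by 2.23), with a median of 0.40. *Ybx2*, which encodes a protein that binds stored mRNAs, stood at 3620, 2687 and 4522 RPKM in the spermatids of mice 178, 351 and 544 and at 2517 and 2505 in mice 648 and 286. It was the only gene of this list lower in both of these mice than in the other 3, while *Tarbp2*, *Papolb*, *Piwil1*, *Ddx25* and *Dazl* were higher in both and *Ybx3* overlapped. For this split too the share of all genes is not given. Of 12 genes for histone removal and the handling of transition proteins, 2 were higher (*Chd5*, by 3.32, and *Hils1*, by 3.14) and 3 lower (*Rnf8*, *Hist1h1t*, *Hist1h2ba*), with a median of 0.55. *Tssk6*, a kinase of that list needed for the exchange of histones, stood at 35.4, 28.3 and 35.4 RPKM in mice 178, 351 and 544, at 0 in mouse 648 and at 0.061 in mouse 286. *H1fnt*, a spermatid linker histone, stood at 176, 82.7 and 92.4 RPKM in those 3 mice and at 1.59 and 1.004 in mice 648 and 286. In mice 648 and 286 both were lower than in the other 3, as were *Rnf8*, *Chd5*, *Camk4* and *Hils1*, while *Brdt*, *Psme4*, *Hspa2* and *Srpk1* were higher and *Hist1h1t* and *Hist1h2ba* overlapped. Without the share of all genes that do the same, this describes the list only. In both genotype comparisons 0 genes of any list passed in limma.

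In whole testes 3 of the 6 marker lists of other cells had higher sums in each mouse with low members than in each mouse with high ones, and the sums of the other 3 overlapped. The share of all genes that split these testes in the same way is not given, so this count only describes the lists. Markers of primary spermatocytes summed to 217, 571 and 593 RPKM in mice 178, 214 and 273, and to 2562, 848, 819 and 2174 in mice 648, 269, 286 and 308. Between sorted primary spermatocytes and spermatogonia 0 of these 6 markers were called higher in limma and 1 lower (median -0.09). Of all genes 31.5% passed there in either direction. The sum thus does not mark primary spermatocytes alone. Sertoli cell markers summed to 351, 639 and 671 RPKM in mice 178, 214 and 273, and to 799, 1218, 834 and 1995 in mice 648, 269, 286 and 308. Spermatogonia markers summed to 59.1, 67.5 and 75.7 RPKM in the first 3 mice, and to 63.8, 149.5, 143 and 381 in the other 4. In the first 2 lists each of the latter 4 testes exceeded each of the first 3, and in the third list mouse 648 lay among the first 3. Peritubular and stromal markers summed to 7.32, 5.497 and 5.70 RPKM in mice 178, 214 and 273, and to 15.2, 18.4, 15.9 and 40.7 in mice 648, 269, 286 and 308, again with no overlap. Leydig cell markers (7.59 to 31.9 RPKM) and macrophage markers (5.501 to 8.72 RPKM) overlapped between the mice. *Sycp3*, *Clu* and *Uchl1* were the most abundant genes of the first 3 lists in all 7 testes, and none of the genes of these 6 lists was at 0 in any testis. Their part in the levels of the members was not tested.

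In the spermatid gate the markers of primary spermatocytes summed to 164, 102 and 56.5 RPKM in mice 178, 351 and 544 and to 964 and 603 in mice 648 and 286, with *Sycp3* the most abundant. Here too the sum does not mark primary spermatocytes alone. Sertoli cell markers summed to 62.2, 60.9, 29.0, 72.2 and 319 RPKM in mice 178, 351, 544, 648 and 286, with *Clu* the most abundant and *Amh* at 0 in mouse 544. Their part in the result was not tested. Between spermatids and the earlier gates, where 23.2% of all genes were lower in limma with a median of -0.35, 1 of 6 primary spermatocyte markers was lower (median -1.47), 5 of 6 spermatogonia markers (median -2.40), 2 of 6 Sertoli cell markers (median -1.35), 4 of 6 Leydig cell markers (median -1.90), 3 of 6 macrophage markers (median -1.18, with *Adgre1* higher) and 0 of 6 peritubular and stromal markers (median -0.81).

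Over the 27 testis libraries the log2 levels of the members were correlated with each other, from r = 0.892 (*Prm2* and *Prm3*) to r = 0.986 (*Prm1* and *Tnp2*). Among 10764 other genes that reached 10 RPKM, the 5 most like *Prm1* were *Ttc24* (r = 0.989), *Tssk6* (0.987), *Ubqlnl* (0.987), *Cstl1* (0.987) and *1700016C15Rik* (0.985). For *Tnp1* they were *Lelp1* (0.985), *Spem2* (0.984), *Dnajb8* (0.983), *Cabs1* (0.980) and *H2al2a* (0.979). For *Prm3* they were *Ccdc27* (0.989), *Fam243* (0.988), *Atp1a4* (0.986), *Irgc1* (0.985) and *Gapdhs* (0.985). The 3 sets share no gene. *Cstl1* stood at 392.5, 193 and 179 RPKM in the spermatids of mice 178, 351 and 544 and at 0.410 and 0.885 in mice 648 and 286, while *Atp1a4* stood at 101.5, 80.9 and 186 RPKM and at 7.65 and 12.7. The libraries share mice and depth, and the correlations rest on the gap between high and low mice as well as on the gates, so they are given as a description.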

How the data were processed

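RNA-seq of 28 libraries was used: 20 sorted germ cell libraries (9 wildtype and 11 knockout) of 8 mice, 7 whole testes and 1 ovary. The authors mapped polyA paired-end reads with TopHat2 to Ensembl transcripts and deposited RPKM per transcript. Transcripts were assigned to genes with GENCODE M21 (90339 of 94480 matched), and the 78640 matched ones with a value in all 28 libraries were summed per gene, with reads shared between isoforms counted in each. In 27 libraries 93.1 to 94.5% of the values of short transcripts (200 to 2500 nt, up to 6 reads) fell within 0.06 of a whole read, where chance gives 12.0%, so the estimated depth is the inverse of that step; in mouse 613 it was 12.7%. Read numbers are RPKM times length times depth, and no count model was fitted.

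Tests used log2(RPKM + 0.1) of genes whose average in a fit was 0.1 RPKM or more. They were run in R 4.3.3 by limma 3.58.1, with lmFit followed by eBayes (trend set), and p was adjusted by Benjamini-Hochberg over all genes tested and called under 0.05. Sorted libraries were fitted in 8 groups of genotype by gate, and whole testes in 2. The fits were tested on simulated data. Exact permutation tests were two-sided. They and the other steps ran in Python 3.11.15 (numpy 2.4.6, pandas 2.3.3, matplotlib 3.10.9).

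For comparisons inside mice, their exact test and the random block, libraries were paired by the mouse given in the labels. The main fit was not paired. The pairing was checked on the residuals of the fit, whose correlation had a median of 0.48 within a mouse (22 pairs of libraries, -0.15 to 0.70) and -0.05 between mice (151 pairs, -0.70 to 0.67). The random block for the mouse (duplicateCorrelation) took a correlation of 0.399.

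The genes named are the 5 members, the genes of 11 fixed lists (74 of 75 in the table), and for *Prm1*, *Tnp1* and *Prm3* the 5 other genes with the highest Pearson correlation over the 27 testis libraries among those reaching 10 RPKM. The members and the lists were chosen with earlier results of these data known. Alternatives were pseudocounts of 0.01 and 1, no filter, quantile normalization, 1 transcript per gene, the mouse as a block, wildtype libraries only, only libraries sharing the missing transcripts of mouse 178, and leaving out each mouse; leaving out the spermatogonia library of mouse 544 was chosen after seeing the data. PEER and PoissonSeq, named in the study, were not run, since one was not installed and the other takes counts. The ovary was left out of all tests.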

Additional observations from a re-analysis of the deposited data

How the results depend on the processing

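Of 80 values for the 5 members between spermatids and the earlier gates, 75 kept their direction and their side of the threshold and 5 kept the direction but lost the threshold, all for *Prm3*: 3.53 with no filter on low values, where more genes are tested, and 4 values with a mouse left out. With each mouse left out in turn *Prm3* ran from 3.17 (without 351) to 3.998 (without 178). Between primary spermatocytes and spermatogonia 57 of 80 values kept their direction and 23 reversed. *Prm1* was 0.12 and *Prm2* 0.56 with a pseudocount of 0.01, and 0.17 and 0.27 after quantile normalization. *Prm3* was -0.25 and *Tnp2* -0.030 with a pseudocount of 1, and -0.47 and -0.45 with the mouse as a block. Without the spermatogonia library of mouse 544, an alternative chosen after seeing the data, *Prm1* was 2.80, *Prm2* 2.76 and *Tnp1* 2.15. With mice left out the values ran from -3.01 to 2.81 (*Prm1*), -2.76 to 2.78 (*Prm2*), -2.11 to 2.54 (*Prm3*), -3.22 to 2.17 (*Tnp1*) and -2.12 to 3.07 (*Tnp2*), lowest without 286 and highest without 544.

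Between secondary and primary spermatocytes 79 of 80 values kept direction and side, and *Prm3* passed the threshold with the mouse as a block (3.03). Between spermatids and secondary spermatocytes 78 of 80 did. With mice left out *Prm2* ran from -0.025 (without 544) to 3.22 (without 178) and *Tnp2* from -0.66 (without 544) to 2.30 (without 286).

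For knockout against wildtype in whole testis 50 of 65 values kept their direction and 15 reversed. With mice left out they ran from -5.15 to 4.45 (*Prm1*), -6.70 to 5.36 (*Prm2*), -3.49 to 1.23 (*Prm3*), -5.66 to 2.10 (*Tnp1*) and -4.45 to 4.04 (*Tnp2*), lowest without 648 and highest without 178, the lone wildtype testis being assumed to vary like the other group. For the same comparison in spermatids 68 of 80 kept their direction and 12 reversed. *Prm3* was -0.079 after quantile normalization and -2.9999 in the 8 libraries that share the missing transcripts of mouse 178, where mouse 286 is the lone knockout in that gate. With mice left out the values ran from -5.88 to 2.82 (*Prm1*), -6.00 to 3.54 (*Prm2*), -1.61 to 1.98 (*Prm3*), -5.84 to 2.85 (*Tnp1*) and -6.35 to 3.01 (*Tnp2*), lowest without 544 and highest without 286. Apart from the filter, the cause was not tested. Since no genotype difference passed the threshold, these reversals concern values within their error.

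The number of genes called moved by more than 1.5 times between secondary and primary spermatocytes, from 578 to 233 with a pseudocount of 1, 377 with no filter, 291 with 1 transcript per gene and 0 in wildtype libraries only. Between spermatids and secondary spermatocytes it moved from 102 to 167 and 9 with pseudocounts of 0.01 and 1, 48 with no filter, 12 after quantile normalization, 1 with 1 transcript per gene and 0 in wildtype libraries only. Quantile normalization moved the median of all genes by 0.35, -0.27 and 0.25 in the 3 steps between gates and by -0.15 between genotypes in spermatids.

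Depth limits the low mice most: under 3 reads no level is told from 0, and the ratios among members in the testis of mouse 308 rest on 38 reads or fewer. The groups hold 2 to 5 mice, whose levels of these genes differ widely within a gate, so differences between groups have wide errors. Genotype, gate and mouse come from labels. Sorting purity was not measured here beyond the marker lists. The members are few, share libraries and, for 4 of them, a cluster, and are not replicates of each other.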
